A study of Mus musculus with 13 samples.

Results

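The integrated stress response programme of Atf4 is described here by 10 genes, namely the transcription factors Atf4, Atf5 and Ddit3, the pseudokinase Trib3, the glutathione-degrading enzyme Chac1, and the amino acid and one-carbon enzymes Asns, Psat1, Phgdh, Mthfd2 and Shmt2. They were chosen by symbol from the counts of 24421 genes deposited for each replicate, and all 10 were found in both replicates. All 10 were among the 20044 genes that had a count in 1 library or more, on which every test was run. RNA-seq was performed on F1-2.1 cells, a female mouse embryonic stem cell (mESC) line of the strain CAST/Ei x 129/Sv/Jae, carrying the genotype Tet-on CTCF S224E (clone A2). The transgene makes CTCF with a 3xFLAG tag and a glutamate that mimics phosphorylation of Ser224, and EGFP, when doxycycline (dox) is added. Cells were grown on irradiated mouse embryonic fibroblasts with LIF for 6 days with 1 μg/mL dox (+dox, 2 libraries) or without dox (−dox, 2 libraries). All 4 libraries came from 1 clone that also carries endogenous Ctcf. RNA of cells given dox without this transgene, or with a transgene of wild-type CTCF, was not analysed here. Effects of dox, of EGFP, of added tagged CTCF and of the S224E substitution therefore cannot be told apart.

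In the integrated stress response, kinases that sense amino acid shortage, unfolded protein, viral RNA or lack of heme phosphorylate the translation factor eIF2, which lowers general translation. Translation of Atf4 mRNA rises under these conditions because of short upstream reading frames, so that Atf4 mRNA is only part of the control of Atf4 protein. Atf4 then binds composite C/EBP-ATF elements near genes for amino acid synthesis, amino acid import, tRNA charging and redox balance. Embryonic stem cells grow fast and use this supply of amino acids and one-carbon units for protein and nucleotide synthesis.

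The composite element is shown for the 3 of these genes that had it, because it is the sequence through which Atf4 is known to act. The letters TGATGNAA were searched on both strands from 250 bases before to 50 bases after each start site in the files (mm9, NCBIM37). A match was found at 3 of the 10 genes (30.0%) and at 547 of 20043 promoters of the genes tested (2.73%). The sequences below run 5′ to 3′ on the strand of the gene, with the match in capitals and 8 bases on each side. They lie at chr6:7643217-7643240 (minus strand) for Asns, chr2:152169767-152169790 (minus strand) for Trib3 and chr2:119176777-119176800 (plus strand) for Chac1.
Asns: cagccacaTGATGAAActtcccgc
Trib3: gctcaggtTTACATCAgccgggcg
Chac1: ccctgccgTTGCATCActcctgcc
Positions are counted from the start sites in the files. The match began 50 bases before the start site of Asns and reads in the direction of the gene, while the longest Asns model of the NCBIM37 annotation begins further upstream, at base 7643254, and so spans it. It began 193 bases before the start site of Chac1 and reads on the opposite strand. In Trib3 it lay from base 15 to base 22 after the start in the files (base 152169796), also on the opposite strand, but the annotated Trib3 models begin further downstream, at base 152169768 or beyond, which leaves the match upstream of them. For the other 7 genes these letters are not in this window, from which nothing follows about Atf4 at those genes. The shorter core TGATG was at 4 of the 10 (40.0%) and at 31.6% of all promoters, a smaller distance between the shares than for the longer element.

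The libraries held 22899107 and 23136603 counted reads with dox and 30206085 and 24620964 without. Ctcf itself, which cannot be split into endogenous and transgene reads in these counts, had 327 and 329 CPM (counts scaled to the size of the library) with dox and 295 and 304 without (log2 fold change 0.13, adjusted p = 0.475, edgeR). From reads over the mutated codon, the study reported that transgene RNA was present, in a minority of these reads, and was not grossly overexpressed. All 10 embryonic stem cell markers were detected, with a summed level of 6126 and 6942 CPM with dox and 5475 and 5908 without. Markers of other cell types and states differed between the libraries. The summed level of 12 fibroblast (feeder) markers was 850.4 CPM in +dox replicate 1, against 322 in +dox replicate 2 and 254 and 244 without dox, and 0 of the 12 were called by edgeR but 9 had an unadjusted p under 0.05, all higher. The summed level of 10 primitive streak markers was 39.1 and 39.0 CPM with dox and 163 and 189 without, with 6 of 10 called lower. Of 8 neural progenitor markers 2 were called higher and 0 lower, and 6 had a mean of 1 CPM or more. Their estimates were above 0 for 7 and below 0 for 1 (log2 fold change −1.18, unadjusted p under 0.05, edgeR). The sum of the 8 was 206 and 211 CPM with dox and 182 and 144 without. None of these markers was at 0 in every library. Their part in the values of the 10 genes was not tested, and in such bulk RNA fewer cells of a type and less RNA per cell cannot be told apart.

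The 10 genes differed widely in level, compared here per length as RPKM, the CPM per kilobase of counted exon. Without dox Atf4 had 256 ± 0.95 RPKM (SD, n = 2, as for all means here), which exceeded 99.1% of the 13911 genes whose mean was 1 CPM or more. The enzymes Shmt2 (150.4 ± 0.91 RPKM), Asns (136 ± 1.7) and Psat1 (109.8 ± 5.7) came next, each above 95.3% of genes or more, and Mthfd2 followed at 49.3 ± 2.0. Ddit3 (19.9 ± 0.43 RPKM), Phgdh (16.3 ± 2.6) and Atf5 (13.8 ± 2.5) were near the middle of the range, and Trib3 (8.97 ± 1.0) and Chac1 (5.14 ± 2.0) were lowest. Atf4 thus stood 49.9-fold above Chac1 without dox and 94.5-fold with dox. The libraries of neighbours in this order did not overlap, except those of Phgdh and Atf5 in both conditions and those of Asns and Psat1 with dox. The order was the same in both conditions except that Phgdh (12.1 ± 1.6 RPKM) came after Atf5 (13.2 ± 1.1) with dox, a pair whose libraries overlapped. The level of Phgdh, and so its place, is uncertain, since 74.3% of its exon bases have near-identical copies elsewhere and the authors counted unique reads.

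**Figure D1:**
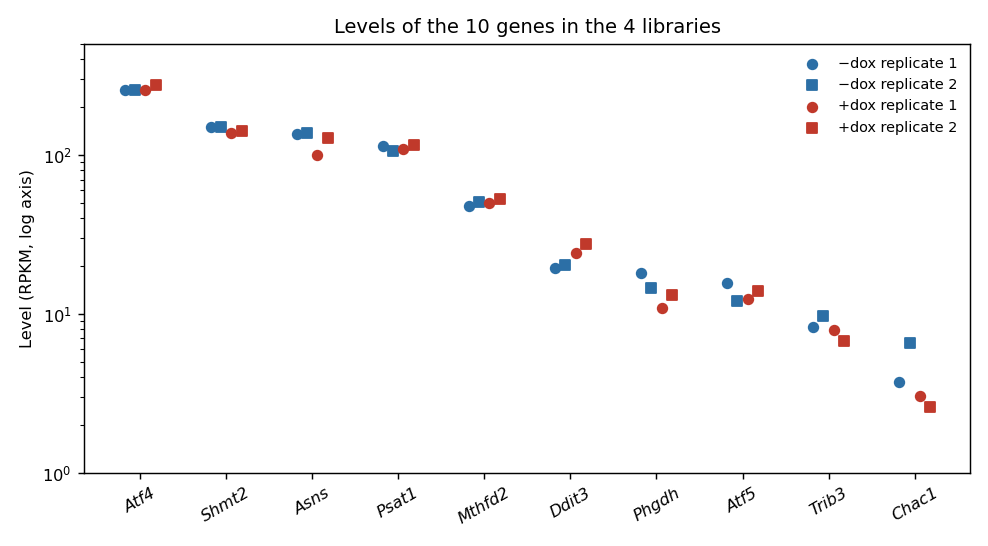
Level of each of the 10 genes (RPKM, log axis) in the 4 libraries, with −dox in blue, +dox in red, circles for replicate 1 and squares for replicate 2. Atf4 lies above 255 RPKM in every library and Chac1 at 6.55 or below, and the +dox and −dox points of most genes lie close together beside the distance between genes.

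None of the 10 genes was called between +dox and −dox at an adjusted p of 0.01 by edgeR's quasi-likelihood test or by DESeq2. Over all genes tested, edgeR called 0.0798% higher and 0.519% lower, and DESeq2 called 1.87% in either direction. An unadjusted p under 0.05 was reached by Ddit3 (higher) and by Asns, Chac1 and Phgdh (lower), which is 4 of 10 beside 17.8% of all genes. All 10 had a mean of 1 CPM or more, and of the 13911 such genes 1517 reached this p higher and 1723 lower. The libraries of the 2 conditions did not overlap for 6 genes. Ddit3 was higher in both +dox libraries (1 of 10, beside 23.3% of all genes), and Asns, Trib3, Chac1, Phgdh and Shmt2 were lower in both (5 of 10, beside 23.7%). Of the 13911 genes with a mean of 1 CPM or more, 3627 were higher and 3855 lower without overlap. The median log2 fold change of the 10 was −0.09, with a range from −0.86 to 0.38, beside a median of 0.01 over all genes. With 2 libraries against 2, an exact permutation test of 1 gene cannot go below p = 0.333, so no such test was used.

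Among the transcription factors, Atf4 (chr15:80085614-80087975) was measured most precisely. It had 441 and 478 CPM in +dox replicates 1 and 2 and 443 and 440.5 CPM in −dox replicates 1 and 2. The conditions overlapped, since +dox replicate 1 lay between the −dox libraries. The log2 fold change was 0.06 (95% interval −0.13 to 0.24, adjusted p = 0.753, edgeR). The whole interval lay well within a 1.5-fold difference in Atf4 mRNA in either direction. As background, this interval is on mRNA and does not bear on the translation of Atf4, its main point of control.

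Atf5 (chr7:52067626-52072028), a factor of the same family whose mRNA also carries upstream reading frames, had 22.5 and 25.2 CPM with dox and 28.3 and 21.8 CPM without. Its libraries overlapped, and the change was of opposite sign in the replicates (−0.33 in replicate 1 and 0.21 in replicate 2). The log2 fold change was −0.07 (95% interval −0.43 to 0.29, adjusted p = 0.855, edgeR). Of its annotated exon bases 4.12% are also exons of Il4i1 or Nup62 on the other strand, and whether the counting used the strand is not given in the sources used here.

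Ddit3 (chr10:126727849-126733344) encodes CHOP, a C/EBP-family factor induced by Atf4 and known for its role in stress-induced cell death. It had 21.0 and 23.8 CPM with dox against 16.9 and 17.5 CPM without. Both +dox libraries were above both −dox libraries, in replicate 1 by 0.31 and in replicate 2 by 0.44 on the log2 scale. The fitted log2 fold change was 0.38 ± 0.16 (SE), or 1.30-fold, with an unadjusted p of 0.0322 and an adjusted p of 0.221 (edgeR). It was the only one of the 10 genes with an estimate above 0.1. Of its annotated exon bases 68 (4.01%) are also exons of Mars on the other strand, while the counted length of Ddit3 is only 865 bases. Mars had 225 and 221 CPM with dox and 220 and 204 CPM without, far above Ddit3. Whether the counting used the strand is not given, and the part of Mars reads in the Ddit3 count was not tested.

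Trib3 (chr2:152163161-152169796) encodes a pseudokinase that is induced by Atf4 and Ddit3 and dampens their activity. It had 16.3 and 13.9 CPM with dox and 16.9 and 19.8 CPM without, on 317 to 515 reads per library. The libraries did not overlap, but +dox replicate 1 was only 0.05 below −dox replicate 1 on the log2 scale, against 0.51 in replicate 2. The log2 fold change of −0.28 ± 0.18 (SE) had an adjusted p of 0.449 (edgeR).

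Chac1 (chr2:119176978-119180062), whose product cleaves glutathione, had the widest difference of the 10 and the fewest reads. It had 107 and 93 counts with dox and 178 and 257 without, or 4.75 and 4.07 CPM against 5.83 and 10.2 CPM. Both +dox libraries were below both −dox libraries, but the −dox libraries differed from each other more than the +dox libraries did from −dox replicate 1. The log2 fold change was −0.86 ± 0.28 (SE), or 0.551-fold, with an unadjusted p of 0.00943 and an adjusted p of 0.122 (edgeR). Within the replicates it was −0.29 and −1.31. Without +dox replicate 1, the library with the highest feeder markers, Chac1 passed the threshold (log2 fold change −0.97, adjusted p = 0.00917, edgeR), in a fit that called 992 genes in all instead of 120. That fit has 1 +dox library, which is assumed to vary like the −dox pair that alone gives the spread. Over all alternatives its adjusted p ran from 0.00917 to 0.690, and without −dox replicate 2, the library with the most Chac1, the estimate was −0.40.

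Asns (chr6:7625171-7643182), which makes asparagine from aspartate and glutamine, had 191 and 243 CPM with dox and 259 and 263 CPM without. The −dox libraries were close together and both above the +dox libraries, of which replicate 1 was clearly the lower. The log2 fold change was −0.26 ± 0.11 (SE), or 0.833-fold, with an unadjusted p of 0.0353 and an adjusted p of 0.234 (edgeR). It was −0.44 in replicate 1 and −0.11 in replicate 2. Without +dox replicate 2 it passed the threshold (log2 fold change −0.45, adjusted p = 0.00688, edgeR), in a fit that called 877 genes and in which, again, the lone +dox library, here the one with the highest feeder markers, is assumed to vary like the −dox pair. Across the fits that left out 1 library the estimate ran from −0.45 to −0.10, the latter without +dox replicate 1.

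The serine pathway gave values of both kinds. Phgdh (chr3:98117094-98143892), the enzyme of its first step, had 20.3 and 24.5 CPM with dox and 33.8 and 26.9 CPM without, with no overlap. Its log2 fold change was −0.44 ± 0.16 (SE), or 0.738-fold (unadjusted p = 0.0202, adjusted p = 0.177, edgeR), made up of −0.74 in replicate 1 and −0.13 in replicate 2. The count of Phgdh is uncertain, because 74.3% of its exon bases have a copy of at least 50 bases and 96% identity at 17 other loci, and the authors counted unique reads. Psat1 (chr19:15979613-15999549), the enzyme of the next step, had 235 and 248 CPM with dox and 246 and 229 CPM without. Its conditions overlapped, with a log2 fold change of 0.03 (95% interval −0.17 to 0.22, adjusted p = 0.918, edgeR). The estimate turned to −0.018 when libraries were scaled by total counts. Whether Phgdh and Psat1 differed in their change was not tested.

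The mitochondrial one-carbon enzymes moved least between replicates. Shmt2 (chr10:126954179-126959500), which passes a carbon from serine to folate, had 317 and 324 CPM with dox and 346 and 343 CPM without. Its libraries did not overlap, and the log2 fold change of −0.10 (95% interval −0.29 to 0.08, adjusted p = 0.595, edgeR) was near the same size in both replicates (−0.13 and −0.08). Mthfd2 (chr6:83255698-83267598), which oxidises the folate-bound carbon, had 103 and 109 CPM with dox and 98.5 and 104 CPM without, and overlapped. Its log2 fold change was 0.06 (95% interval −0.15 to 0.28, adjusted p = 0.765, edgeR). Of all 10 genes, 9 had a 95% interval that lay within a 2-fold change in either direction, Chac1 being the exception, and 6 had one within 1.5-fold.

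**Figure D2:**
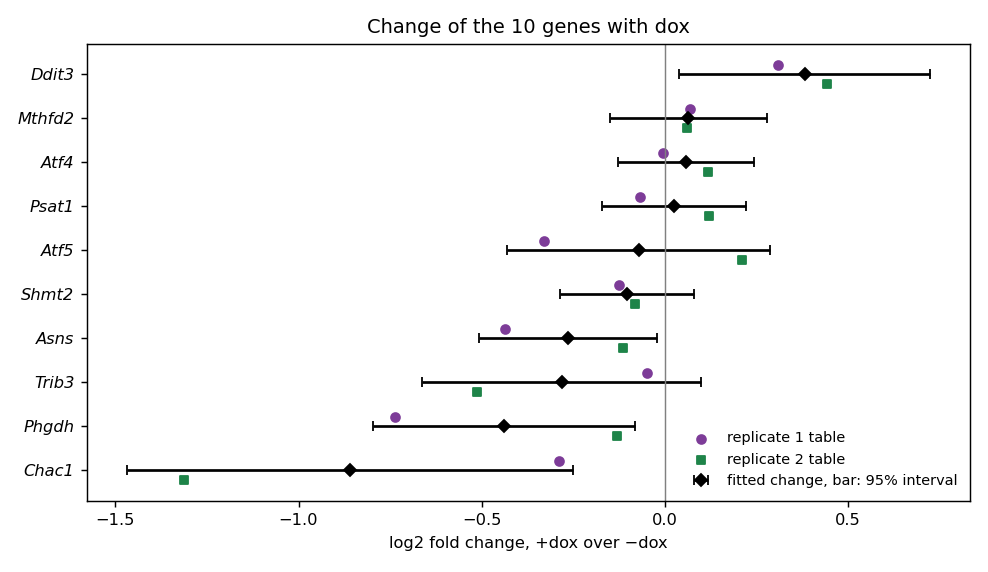
Log2 fold change, +dox over −dox, of each of the 10 genes, with the change within replicate 1 (purple circle) and within replicate 2 (green square), and the edgeR estimate of all 4 libraries (black diamond) with its 95% interval. Ddit3 is the only gene whose interval lies above 0, those of Asns, Phgdh and Chac1 lie below 0, and the other 6 contain 0.

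Seen within each replicate, 2 genes (Ddit3 and Mthfd2) were higher with dox in both and 5 (Asns, Trib3, Chac1, Phgdh and Shmt2) were lower in both, while Atf4, Atf5 and Psat1 had opposite signs. The median change of the 10 was −0.10 in replicate 1 and −0.01 in replicate 2. The replicates did not rank the genes alike. Phgdh had the lowest value in replicate 1 (−0.74), followed by Asns (−0.44), and Chac1 (−1.31) and Trib3 (−0.51) in replicate 2. The median gap between the replicates was 0.26 on the log2 scale for the 10 genes, beside 0.27 over all genes tested and 0.19 over those whose mean reached 1 CPM.

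To place the 10 genes in their pathway, 95 further genes in 6 lists were read from the same fit, of which 93 had a mean of 1 CPM or more. None was called higher and 1 was called lower by edgeR at 0.01. DESeq2 called 1 higher and 3 lower. Unadjusted p-values under 0.05 were found for 10 higher and 12 lower, beside 17.8% of all genes. The libraries did not overlap for 28 higher and 21 lower, beside 23.3% and 23.7% of all genes, so these counts were near the background. Of the 13911 genes with a mean of 1 CPM or more, 1517 higher and 1723 lower reached that p. Without overlap, 3627 of them were higher and 3855 lower. The median log2 fold change of the 95 was 0.03.

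The gene called was Ddit4 (chr10:59412423-59414518), an inhibitor of mTORC1 that is a target of Atf4 and also of hypoxia, glucocorticoid and p53 signalling. It had 71.5 and 59.8 CPM with dox and 109.7 and 123 CPM without, both +dox libraries being well below both −dox libraries. It fell with a log2 fold change of −0.82 ± 0.12 (SE), or 0.565-fold (adjusted p = 0.00332, edgeR). This call was lost without either −dox library (adjusted p = 0.550 without replicate 1 and 0.670 without replicate 2), where no gene at all was called, while the estimate was −0.90 and −0.74. Stc2, a secreted glycoprotein of the stress response, and Vegfa, an angiogenic growth factor, had log2 fold changes of −1.09 (adjusted p = 0.0181) and −0.95 (adjusted p = 0.0216, edgeR), and were called by DESeq2 but not by this test. Nupr1, a stress-induced chromatin protein looked at after its values were seen, was the gene that DESeq2 called higher. It had 28.1 and 15.0 CPM with dox and 8.97 and 10.9 CPM without, and the +dox library with the most Nupr1 was also the one with the highest feeder markers. Its log2 change was 1.64 in replicate 1 and 0.46 in replicate 2 (adjusted p = 0.0389, edgeR). These 4 genes come from a list of 20 other factors and targets with a median of 0.07. Of the 20, 12 had an estimate above 0 and 8 below. An unadjusted p under 0.05 (edgeR) was reached by 3 higher and 5 lower, beside 17.8% of all genes in either direction. Without overlap 7 were higher and 7 lower, beside 23.3% and 23.7% of all genes.

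Upstream of Atf4, 0 of 10 genes for eIF2 kinases and their regulators, eIF2 and eIF2B subunits and phosphatase subunits were called, with a median log2 fold change of 0.04. Eif2ak4, the kinase GCN2 that senses uncharged tRNA, had 63.4 and 57.1 CPM with dox and 74.4 and 74.7 CPM without (log2 fold change −0.31, adjusted p = 0.152, edgeR). Eif2ak1, the heme-regulated kinase, had 86.0 and 101 CPM against 77.9 and 79.7 CPM (0.25, adjusted p = 0.262). Ppp1r15a, the stress-induced phosphatase subunit GADD34, was at 0.21 (adjusted p = 0.300).

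Of 15 other enzymes of amino acid and one-carbon metabolism none was called. Their median was −0.13, 5 had an unadjusted p under 0.05 in the lower direction and 1 in the higher, and 7 were lower without overlap against 2 higher. Over all genes these shares were 17.8% for the p-value in either direction, 23.7% lower without overlap and 23.3% higher. The 3 with the lowest p were Aldh18a1 of proline synthesis (log2 fold change −0.36, adjusted p = 0.107), Gldc of the glycine cleavage system (−0.36, adjusted p = 0.122) and Aldh1l1 of cytosolic folate metabolism (−0.53, adjusted p = 0.126, edgeR). Their values, like those of Asns and Phgdh, were lower in both +dox libraries. This list and the 10 genes were the 2 groups with the lowest medians, and a difference between groups was not tested.

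The 20 aminoacyl-tRNA synthetases, which load amino acids on tRNA, had a median of 0.07 and none was called. All but 7 had an estimate above 0, and 13 were higher in both +dox libraries with 0 lower in both, beside 23.3% and 23.7% of all genes. With libraries scaled by total counts this became 8 higher and 3 lower, beside 3878 higher and 5589 lower of 20044 genes. The 3 with the lowest p were Farsa (log2 fold change 0.23, adjusted p = 0.219) and Farsb (0.21, adjusted p = 0.268), which form 1 enzyme, and Rars (0.15, adjusted p = 0.413, edgeR). The composite element was at 6 of 20 promoters in this list (30.0%), at 7 of 20 (35.0%) of the other factors and targets, at 2 of 10 (20.0%) of the amino acid transporters, at 1 of 10 (10.0%) of the upstream genes, at 1 of 15 (6.67%) of the metabolic enzymes and at 0 of 20 of the Atf6 and Xbp1 targets, beside 2.73% of all promoters.

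Among 10 amino acid transporters none was called and the median was −0.01. Slc3a2, the shared heavy chain of several exchangers, was at 0.25 (adjusted p = 0.177), the glutamine carrier Slc1a5 at −0.31 (adjusted p = 0.191) and the cationic amino acid carrier Slc7a3 at 0.20 (adjusted p = 0.362, edgeR). Leaving out 1 library in turn gave 0.15 to 0.35 for Slc3a2, −0.49 to −0.15 for Slc1a5 and 0.05 to 0.34 for Slc7a3, whose change was −0.01 in replicate 1 and 0.41 in replicate 2. The Atf6 and Xbp1 arms, which answer unfolded protein in the endoplasmic reticulum apart from Atf4, had a median of −0.02 over 20 genes and none was called. The chaperone Calr (0.26, adjusted p = 0.209), Creld2 (0.24, adjusted p = 0.243) and Edem1, which takes misfolded glycoproteins to degradation (−0.21, adjusted p = 0.312, edgeR), had the lowest p-values there, with 0.10 to 0.41 for Calr when 1 library was left out.

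**Figure D3:**
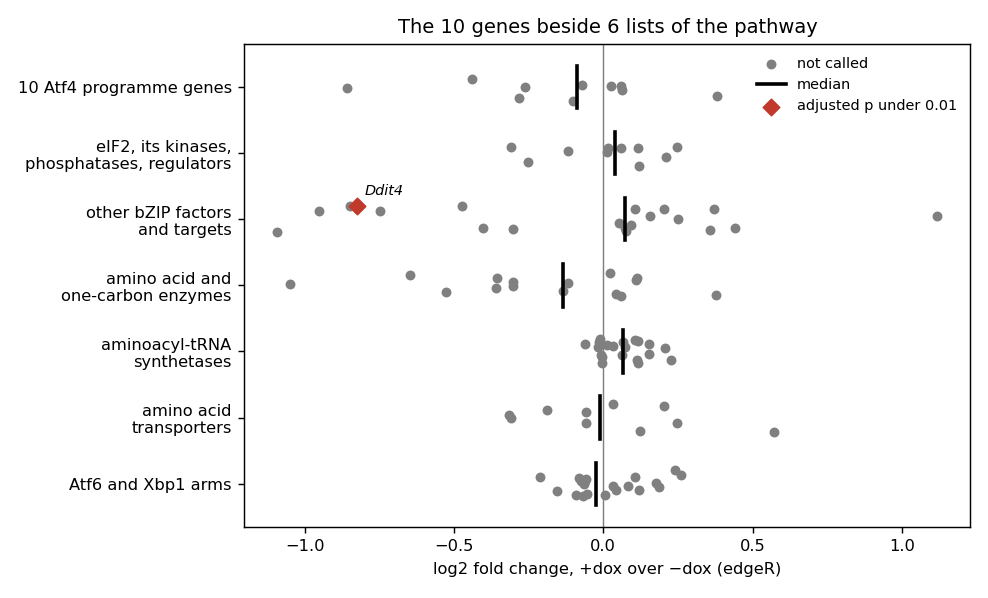
Log2 fold change, +dox over −dox (edgeR), of the 10 genes and of the genes of the 6 pathway lists. Each point is 1 gene, black bars are medians, and the red diamond is Ddit4, the 1 gene with an adjusted p under 0.01. The medians lie between −0.13 and 0.07, and the list of other factors and targets has the widest spread.

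The mean profile of the 10 genes, each centred on its own mean on the log2 scale, was −0.11 and −0.03 in +dox replicates 1 and 2 and 0.05 and 0.09 in −dox replicates 1 and 2. The genes lay at different distances from it, from 0.06 for Shmt2 to 0.88 for Chac1 on the log2 scale over 4 libraries. Among 9961 other genes whose mean was 10 CPM or more, those nearest to this profile were Haghl (distance 0.0048), Hsf2 (0.011), Apobec3 (0.012), Fah (0.015) and Idh1 (0.016). For every one of the 10 genes at least 134 of these other genes lay nearer to the mean profile than the gene itself did. Among so many genes over 4 libraries close matches occur readily, and a link of the nearest ones to the 10 was not tested.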

How the data were processed

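Counts of 4 RNA-seq libraries were analysed. After trimming (cutadapt), alignment to mm9 (TopHat2) and removal of PCR duplicates, the authors used HOMER to count unique reads on exons, and deposited these raw counts, not normalized, for each replicate. For the libraries the study names a directional second-strand synthesis module. Tool versions and whether the counting used the strand are not given in the sources used here. Samples were grouped by their labels, and the study describes them as biological replicates of 1 clone. ChIP-seq and Hi-C samples were not analysed here. Tables were joined by symbol. In R 4.3.3, 20044 genes were tested with edgeR 4.0.16 (TMM, quasi-likelihood, package defaults, no replicate block), with Benjamini-Hochberg adjustment over all of them and a threshold of 0.01. DESeq2 1.42.0 was an alternative. CPM and RPKM use TMM library sizes, and changes within a replicate a prior count of 2. Copies of exons were searched with BLAST 2.17.0, and promoters were read from NCBIM37 at the start sites of the files. The 10 genes and all lists were chosen with earlier results of these data known, so that no list was tested as a set. From each list the genes called and, up to 3, those with the lowest p and a mean of at least 1 CPM were named, with the 5 genes nearest to the mean profile of the 10. Counts set how precise a value can be: Chac1 rests on 93 to 257 reads per library and Atf4 on 9935 to 13524.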

Additional observations from a re-analysis of the deposited data

How the results depend on the processing

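Of 120 values of the 10 genes under other settings (12 for each gene), 112 kept their direction and their side of the threshold of 0.01, 6 changed sign and 2 passed it. Psat1 turned to −0.018 with total counts. When 1 library was left out, Atf4 ran from −0.0010 to 0.11, Atf5 from −0.25 to 0.13 and Psat1 from −0.028 to 0.080. The 10 genes then gave 0 calls higher and 0 to 1 lower (Asns without +dox replicate 2, Chac1 without +dox replicate 1), with a median from −0.14 to −0.04, and the 95 pathway genes gave 0 to 1 calls higher and 0 to 6 lower. The pathway genes gave 1 call higher with DESeq2, with the replicate block and at an adjusted p of 0.05. They gave 3 calls lower with these settings and with edgeR's likelihood ratio test, and 0 with deviances adjusted for small counts and with filterByExpr, under which Ddit4 had an adjusted p of 0.0938 and 0.0307 at an estimate of −0.82. The element TGATGCA was at 1 of the 10 promoters (10.0%, against 30.0% for TGATGNAA), beside 419 of 20043 promoters of the genes tested (2.09%). Over all genes, 120 calls (16 higher, 104 lower) became 375 with DESeq2, 457 with the likelihood ratio test, 0 with adjusted deviances, 786 with the replicate block, 11 with filterByExpr, 992 and 877 without +dox replicates 1 and 2, and 0 without either −dox library. The cause of these shifts was not tested. The labels do not say that a replicate number marks a shared batch, and deviations of same-numbered libraries correlated at 0.196 over 2 pairs. The replicate block called none of the 10 genes, and its lowest adjusted p among them was 0.0377 (Chac1). Total counts moved the median of all genes to −0.04, with 5 genes called higher and 99 lower. Chac1 has the fewest reads of the 10 genes, and 2 libraries a condition limit every gene.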
